A study of Mus musculus with 6 samples.

Results

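The 78 genes described here encode the proteins of the mitochondrial ribosome, as far as their mouse symbols mark them: every protein-coding gene whose symbol begins with Mrpl (large subunit, 49 genes) or Mrps (small subunit, 29 genes) and goes on with a number. They were drawn from a deposited table of 56980 genes, and all 78 passed the filter on low counts that left 16010 genes for testing. The study sequenced RNA of monocytes from B16F10 tumours, a transplanted mouse melanoma, that had been sorted as cells with CD11b, with high Ly6C and without Ly6G. The genotype label was WT for all 6 libraries, and no age is given. Of these libraries, 3 came after LNP-GFP, lipid nanoparticles named for green fluorescent protein and used here as the control group, and 3 after LNP-Gsdme, named for gasdermin E, a protein that forms pores in membranes and can start lytic cell death. The labels do not say whether libraries of a group came from separate animals or pools of them, so a p-value here reflects only how far these libraries scatter, which may be technical.

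Mitochondria hold their own ribosomes, which translate the few messages of the mitochondrial genome, all of them subunits of the oxidative phosphorylation complexes. Both ribosomal RNAs are made from that genome inside the organelle, whereas every ribosomal protein is encoded in the nucleus, made on cytosolic ribosomes and imported. The large subunit joins amino acids and the small subunit decodes the message. Many of the proteins descend from bacterial ribosomal proteins, and others occur in mitochondria alone.

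Mitochondrial ribosomal protein messages differed little between the 2 treatments. By edgeR's quasi-likelihood test with adjustment over all tested genes, 3 of the 78 were called, at an adjusted p below 0.05, and all 3 were large-subunit genes that rose after LNP-Gsdme: Mrpl57, Mrpl32 and Mrpl30. No member fell, and DESeq2 and limma-voom called none lower either. Over all tested genes 6.3% were called higher and 5.32% lower, so the members' share called higher, 3.85%, was not above the background. At an unadjusted p below 0.05, 14 members were higher and 4 lower. Over all tested genes at that level, rises and falls were nearly equal in number. The members' share higher was close to that of all tested genes, and their share lower was smaller. These shares were not tested against each other.

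Each of the 3 genes that rose holds a match to the core binding motif of nuclear respiratory factor 1 (NRF1) close to its start site. NRF1 is a regulator of many nuclear genes for mitochondrial proteins. Its motif, 1 of 5 searched, stood in 11% of tested protein-coding genes and in 23.3% of large-subunit genes with a promoter sequence. Such a match also stands near the starts of Mrpl39 and Mrpl12, which had the lowest fitted log2 fold changes of the large-subunit genes. These 5 are shown together. The windows are 30 bases on the strand of the gene, 5′ to 3′, from the RefSeq promoter table of build GRCm38.p6, with the match in capitals. Mrpl30 and Mrpl12 match the motif only on the opposite strand.
Mrpl57: tttgaatcctGCGCAGGCGCagaaggcgtc
Mrpl32: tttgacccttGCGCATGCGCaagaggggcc
Mrpl30: tgacgccgctGCGCCTGCGCtgtcttctat
Mrpl39: aaggagaggcGCGCATGCGCccccgcgtgg
Mrpl12: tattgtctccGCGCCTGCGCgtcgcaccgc

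These windows lie at chr14:57826172-57826201 on the plus strand (Mrpl57), chr13:14613105-14613134 on the minus strand (Mrpl32), chr1:37890384-37890413 on the plus strand (Mrpl30), chr16:84735350-84735379 on the minus strand (Mrpl39) and chr11:120484546-120484575 on the plus strand (Mrpl12). All 5 begin their motif upstream of the annotated start, 57 bases before it in Mrpl57, 87 in Mrpl32, 83 in Mrpl30, 125 in Mrpl39 and 81 in Mrpl12. A match of letters is a description of the sequence and not evidence that the factor is bound there.

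Mrpl57 encodes a large-subunit protein that occurs in mitochondria and not in bacterial ribosomes. Its level, in counts scaled to a common library total (CPM, with edgeR's correction for composition), was 17.3, 18.5 and 17.8 in the LNP-GFP libraries and 25.8, 25.1 and 24.02 in the LNP-Gsdme libraries. All LNP-Gsdme libraries lay above all LNP-GFP libraries, and the gap between the groups was wider than the spread within either. The log2 fold change, always LNP-Gsdme over LNP-GFP, came to 0.49 with a standard error (SE) of 0.08 (n = 3 per group, edgeR adjusted p = 0.0215).

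Mrpl32, whose protein is cut by a protease of the inner membrane before it joins the ribosome, stood at 16.8, 16.2 and 15.6 CPM after LNP-GFP and at 21.6, 20.96 and 20.8 CPM after LNP-Gsdme. It rose with a log2 fold change of 0.38 ± 0.08 (SE, 3 libraries in each group, edgeR adjusted p = 0.0363). Mrpl30, the relative of bacterial ribosomal protein L30, was the most abundant of the 3 genes in reads, with 40.1, 42.5 and 40.1 CPM after LNP-GFP and 51.1, 51.8 and 49.1 CPM after LNP-Gsdme. Its log2 fold change of 0.31 ± 0.07 (SE, n = 3) passed too (edgeR adjusted p = 0.0381), and its groups did not overlap either. In the deposited coordinates, on build GRCm39 per the submitters' notes, Mrpl57 spans chr14:58063691-58066753, Mrpl32 chr13:14782769-14787750 and Mrpl30 chr1:37929558-37937616, and none of the 3 overlaps another protein-coding gene of the table.

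Calls for these 3 genes depended on single libraries. All 3 missed the threshold without LNP-GFP 3 (adjusted p = 0.109 for Mrpl57, 0.153 for Mrpl32 and 0.148 for Mrpl30), on leaving out LNP-Gsdme 1 (0.0940, 0.134 and 0.135) and on leaving out LNP-Gsdme 2 (0.0905, 0.125 and 0.141), so no member was then called. Mrpl32 also missed it without LNP-GFP 2 (0.0665) and without LNP-Gsdme 3 (0.0539), and Mrpl30 missed it with upper-quartile scaling (0.0501). Without LNP-GFP 1, in contrast, 7 members were called higher.

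**Figure D1:**
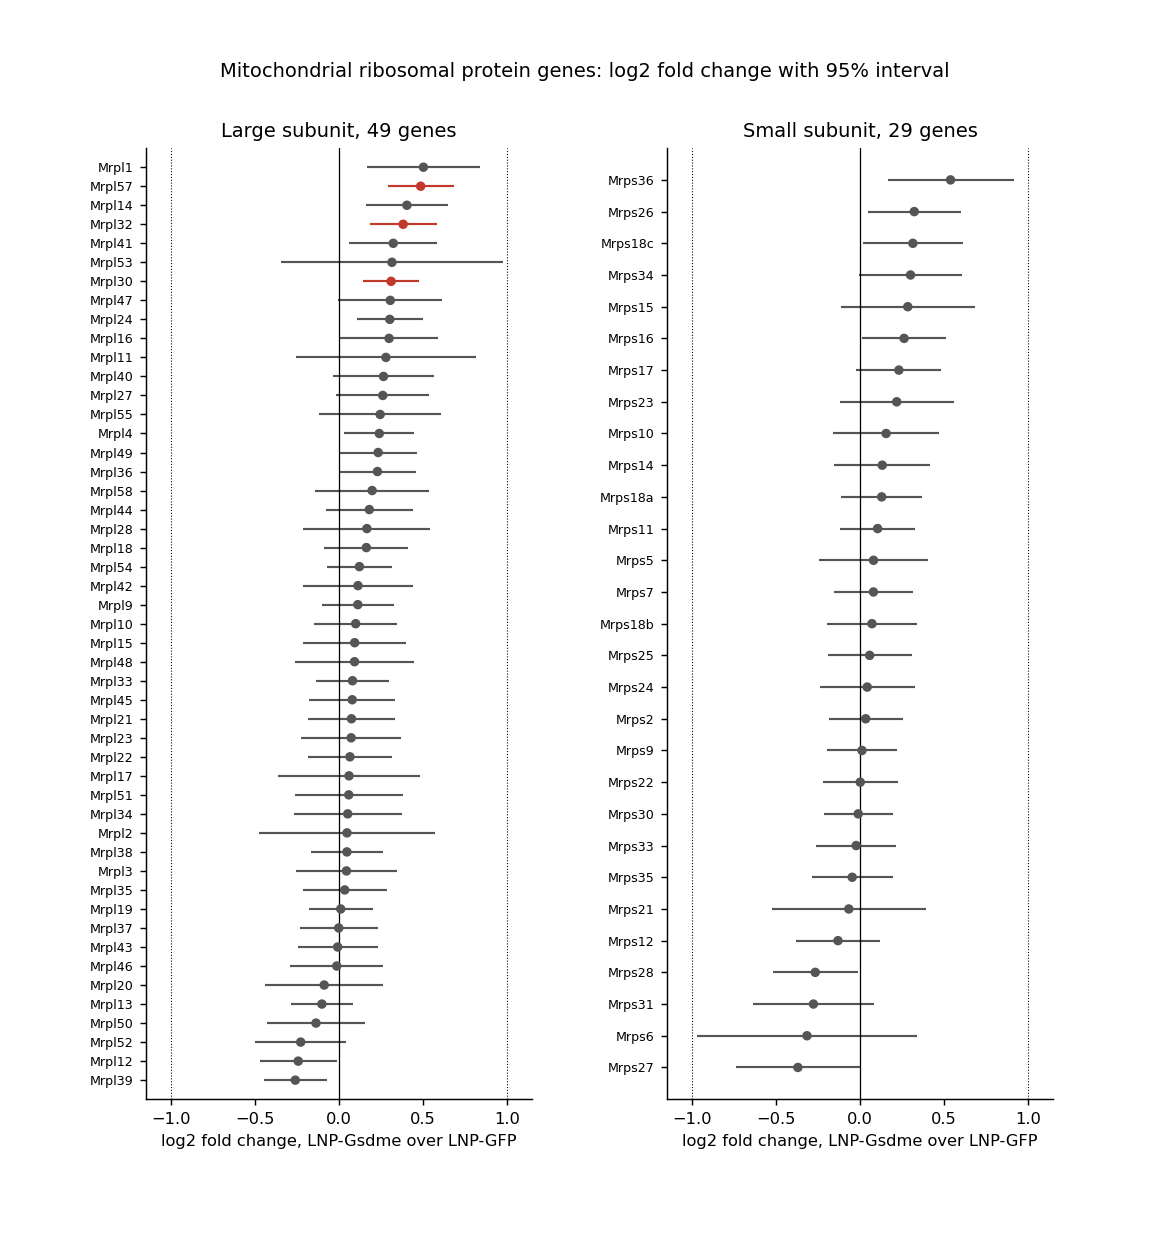
Fitted log2 fold change of LNP-Gsdme over LNP-GFP for each of the 49 large-subunit and 29 small-subunit genes (points, x axis), with 95% intervals (lines) and genes in order of value. Red marks Mrpl57, Mrpl32 and Mrpl30, the genes with an adjusted p below 0.05, and 60 of the 78 points lie above 0.

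Both subunits had medians slightly above 0. Of the 49 large-subunit genes, 40 had a log2 fold change above 0, with a median of 0.10 and a range from -0.26 to 0.50. Of the 29 small-subunit genes, 20 lay above 0, with a median of 0.07 and a range from -0.37 to 0.54. The median was 0.09 over all 78 members and -0.01 over all tested genes. With upper-quartile scaling in place of the trimmed mean of M-values the medians became 0.05 and 0.03, and that of all genes -0.05.

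Small-subunit genes gave no calls with edgeR, DESeq2 or limma-voom, and 4 of them were higher and 2 lower at an unadjusted p below 0.05 in edgeR. The smallest adjusted p among them was 0.0711, for Mrps36. Large-subunit genes, with 3 calls, had 10 higher and 2 lower at that unadjusted level. Compared with all tested genes at that level, the share higher was slightly larger in the large subunit and slightly smaller in the small. The share lower was smaller in both subunits. The share of large-subunit genes called higher, 6.12%, was near the 6.3% of all tested genes, and the difference between 3 of 49 and 0 of 29 was not tested.

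In 19 members (24.4%) each LNP-Gsdme library exceeded each LNP-GFP library, and in 3 members (3.85%) each was lower, against 19.6% and 18.2% of all tested genes. Of the 19, 13 belonged to the large and 6 to the small subunit. In the other 56 members the groups overlapped.

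The 95% intervals of all 78 members lay within 1 unit of log2 fold change on either side of 0, and the widest bounds were -0.97 for Mrps6 and 0.98 for Mrpl53. The median distance from estimate to bound was 0.26. Among LNP-GFP libraries the median coefficient of variation of a member was 8.78%, and among LNP-Gsdme libraries it was 7.38%.

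Summed over genes, the large subunit held 1080, 1057 and 1048 CPM in the LNP-GFP libraries and 1123, 1168 and 1114 CPM in the LNP-Gsdme libraries. The means were 1061 ± 16.3 and 1135 ± 28.8 CPM (SD, n = 3 each). Small-subunit genes summed to 531.0, 502.4 and 509.3 CPM after LNP-GFP and to 541.5, 555.9 and 533.2 CPM after LNP-Gsdme. By these symbols neither sum overlapped between the groups, and the ratio of group means was 0.10 on the log2 scale for the large and 0.08 for the small subunit. No p-value is given for these sums, since the genes were chosen with earlier results of these data known.

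The balance of the subunits was compared as a ratio. The summed CPM of large-subunit genes divided by that of small-subunit genes was 2.034, 2.104 and 2.058 after LNP-GFP and 2.074, 2.101 and 2.089 after LNP-Gsdme. The group values overlapped, with means of 2.065 ± 0.0356 and 2.088 ± 0.0137 (SD, n = 3 each). From FPKM, which also divides by gene length, the ratios were 2.199, 2.239 and 2.207 against 2.236, 2.292 and 2.269, where the highest LNP-GFP library stood just above the lowest LNP-Gsdme library.

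**Figure D2:**
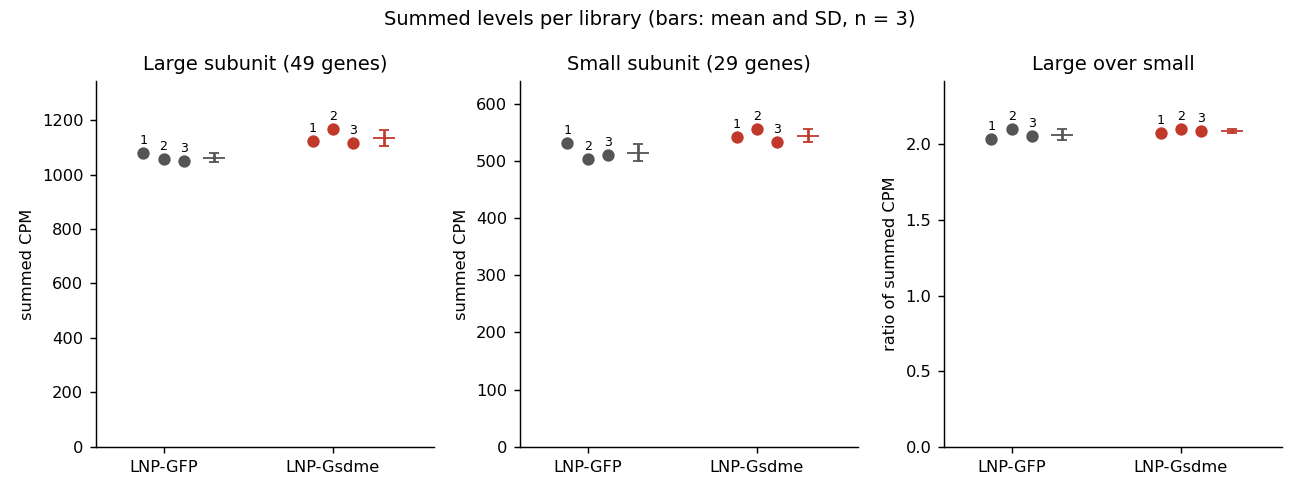
Summed CPM of large-subunit genes and of small-subunit genes, and their ratio, in each of the 6 libraries (points), with the mean and SD of each treatment group. The LNP-Gsdme libraries lie above the LNP-GFP libraries in both sums and overlap with them in the ratio.

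Some members named for the small subunit are placed elsewhere in structures of the mammalian mitochondrial ribosome. Mrps30 and Mrps18a sit in the large subunit, and Mrps36 is now assigned to the 2-oxoglutarate dehydrogenase complex. Counting Mrps30 and Mrps18a as large-subunit genes and leaving out Mrps36 gave 51 large-subunit genes with a median log2 fold change of 0.10 and 26 small-subunit genes with a median of 0.06. The same 3 calls stood in the large subunit by either assignment, but the sums and the ratio moved. The small-subunit sum by place overlapped between the groups, with 460.4, 429.1 and 437.8 CPM after LNP-GFP and 464.9, 479.5 and 457.3 CPM after LNP-Gsdme. The ratio of large to small by place overlapped in summed CPM (2.485, 2.624 and 2.545 against 2.564, 2.580 and 2.587) and did not in summed FPKM (2.439, 2.496 and 2.458 against 2.505, 2.556 and 2.535). Whether the groups separate in the ratio thus depended on the unit and the assignment.

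Symbols with low numbers mostly mark relatives of bacterial ribosomal proteins, and higher numbers mostly mark proteins special to mitochondria. Large-subunit genes numbered to 36 (28 genes, 2 called higher) had a median log2 fold change of 0.10, and those numbered from 37 (21 genes, 1 called higher) had one of 0.11. In the small subunit, the 16 genes numbered to 21 had a median of 0.09, and of the 13 numbered from 22, 7 were above 0 and 6 below, with a median of 0.0011. No test was made between these classes.

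Mrpl1 and Mrpl14 were, with Mrpl57, the large-subunit genes with the highest log2 fold changes. Mrpl1, relative of the protein of the L1 stalk where spent transfer RNA leaves the bacterial ribosome, stood at 8.29, 11.1 and 11.1 CPM after LNP-GFP and at 14.2, 14.7 and 14.4 CPM after LNP-Gsdme. Its log2 fold change of 0.50 ± 0.14 (SE) did not pass the test (edgeR adjusted p = 0.0644, n = 3 per group), and its lowest library was LNP-GFP 1. Mrpl14 lies at the face where the subunits meet, and its level was 11.5, 10.9 and 11.6 CPM against 16.0, 15.3 and 13.8 CPM. It did not pass the test at 0.40 ± 0.10 on that scale (SE, n = 3, edgeR adjusted p = 0.0527), although the groups did not overlap. Both genes passed in DESeq2, with adjusted p = 0.0327 for Mrpl1 and 0.0347 for Mrpl14, and Mrpl14 passed with edgeR on leaving out LNP-Gsdme 3 (adjusted p = 0.0450). In the deposited coordinates Mrpl14 overlaps Tmem63b by 584 bases, and Tmem63b holds more counts (mean 663.5 against 255.3).

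At the other end of the large subunit stood Mrpl39, Mrpl12 and Mrpl52, none of which passed the test. Mrpl39, a protein special to mitochondria, gave 44.6, 40.3 and 41.4 CPM after LNP-GFP and 36.8, 34.9 and 33.8 CPM after LNP-Gsdme, a log2 fold change of -0.26 ± 0.08 (SE, edgeR adjusted p = 0.0767). Its groups did not overlap, and with upper-quartile scaling it was called lower (adjusted p = 0.0469). Mrpl12, relative of the bacterial L7/L12 stalk protein that recruits translation factors, gave 35.2, 39.3 and 37.4 CPM against 28.7, 31.4 and 34.3 CPM, a log2 fold change of -0.24 ± 0.10 (SE, edgeR adjusted p = 0.139). Mrpl52 gave 45.4, 55.7 and 48.2 CPM against 46.9, 42.3 and 38.2 CPM, and its groups overlapped (log2 fold change -0.23 ± 0.11 SE, edgeR adjusted p = 0.220).

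Among small-subunit genes, Mrps36 had the highest log2 fold change at 0.54 ± 0.16 (SE, edgeR adjusted p = 0.0711). It was also one of the less abundant in reads, with 5.84, 4.44 and 5.14 CPM after LNP-GFP and 8.37, 7.11 and 6.96 CPM after LNP-Gsdme, and did not overlap between the groups. Mrps26 followed, with 18.5, 14.8 and 16.7 CPM against 21.9, 19.2 and 21.4 CPM (log2 fold change 0.32 ± 0.12 SE, edgeR adjusted p = 0.115). Neither gene passed the test, except Mrps36 without LNP-GFP 1 (adjusted p = 0.0475).

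Mrps18a, Mrps18b and Mrps18c are 3 relatives of bacterial protein S18. Mrps18c had 21.7, 20.7 and 21.3 CPM after LNP-GFP and 26.2, 30.6 and 22.5 CPM after LNP-Gsdme, with no overlap and a log2 fold change of 0.31 ± 0.13 (SE, edgeR adjusted p = 0.142). Mrps18a had 25.4, 26.8 and 27.4 CPM against 30.6, 30.8 and 25.6 CPM, and Mrps18b had 13.1, 11.999 and 14.04 CPM against 14.9, 13.3 and 12.8 CPM. Those 2 overlapped between the groups, with log2 fold changes of 0.13 ± 0.10 and 0.07 ± 0.11 (SE, edgeR adjusted p = 0.410 and 0.694). Differences among the 3 relatives were not tested.

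Mrps27, a protein with pentatricopeptide repeats, had the lowest log2 fold change of all 78 members, -0.37 ± 0.16 (SE, edgeR adjusted p = 0.158). Its levels were 9.90, 11.8 and 11.8 CPM after LNP-GFP and 7.25, 8.61 and 9.998 CPM after LNP-Gsdme, so that the highest LNP-Gsdme library stood just above the lowest LNP-GFP library. Mrps31 gave 11.3, 12.2 and 13.1 CPM against 9.21, 12.1 and 8.86 CPM (log2 fold change -0.28 ± 0.15 SE, edgeR adjusted p = 0.254). Mrps6, relative of bacterial protein S6, spread most: 8.33, 14.3 and 7.99 CPM after LNP-GFP and 8.48, 6.43 and 9.64 CPM after LNP-Gsdme. LNP-GFP 2 alone held its high value, and the log2 fold change of -0.32 ± 0.27 (SE, edgeR adjusted p = 0.456) was the estimate with the lowest bound. Without LNP-GFP 2 it was 0.014, on the other side of 0 (adjusted p = 0.972). Mrps6 overlaps Slc5a3 in the deposited coordinates.

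**Figure D3:**
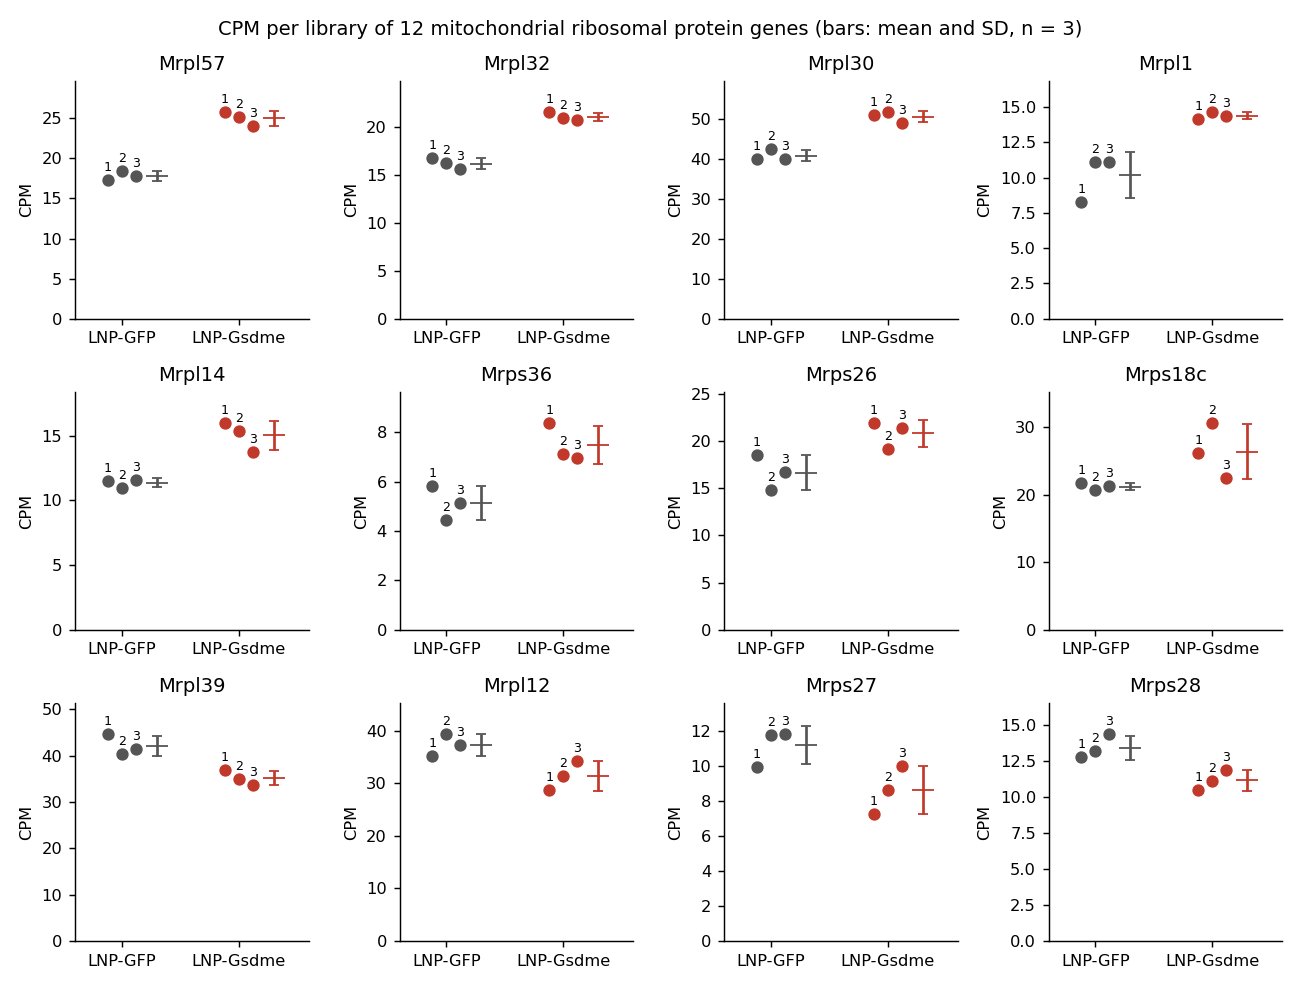
CPM in each library (points) for 12 members, with the mean and SD of the 3 LNP-GFP and the 3 LNP-Gsdme libraries, every axis starting at 0. Mrpl57, Mrpl32 and Mrpl30 show separate groups with little spread, whereas the groups overlap in Mrps27.

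Levels per length were compared with FPKM. The median was 6.30 FPKM over large-subunit genes and 4.33 FPKM over small-subunit genes, and members ran from 0.784 FPKM in Mrps17 to 29.8 FPKM in Mrpl54. The order depends on the lengths the authors used: the length implied for Mrps17 was 13836 bases, and the range over members was 607 to 13836 bases. Mrpl54, Mrpl34 and Mrpl52 led the large subunit, at 29.8, 20.01 and 18.8 FPKM. Mrps7, Mrps28 and Mrps21 led the small subunit, at 16.0, 15.7 and 12.5 FPKM.

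None of these 6 abundant members passed the test. Mrpl54 gave 31.1, 34.7 and 31.6 CPM after LNP-GFP and 36.4, 35.6 and 33.9 CPM after LNP-Gsdme (log2 fold change 0.12, edgeR adjusted p = 0.343). Mrpl34 gave 13.2, 11.5 and 11.04 CPM against 10.7, 12.9 and 13.5 CPM (log2 fold change 0.05). Both overlapped between the groups. Mrps7, relative of the bacterial protein S7 that binds the ribosomal RNA of the head of the small subunit, gave 40.2, 35.2 and 35.1 CPM against 35.4, 41.4 and 40.0 CPM (log2 fold change 0.08). Mrps28 gave 12.8, 13.2 and 14.4 CPM against 10.5, 11.1 and 11.9 CPM, with each LNP-Gsdme library below each LNP-GFP library (log2 fold change -0.27 ± 0.11 SE, edgeR adjusted p = 0.142). Mrps21 had its lowest levels in LNP-GFP 1, LNP-Gsdme 2 and LNP-Gsdme 3: 16.6, 22.5 and 22.1 CPM against 24.3, 17.7 and 16.5 CPM. The log2 fold change of Mrps21, -0.07, ran from -0.26 to 0.04 with single libraries left out. Mrps30 was near level, at 39.4, 42.0 and 39.0 CPM against 37.6, 38.4 and 43.3 CPM (log2 fold change -0.01 ± 0.09 SE, edgeR adjusted p = 0.943).

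Promoters of the members, taken as the 250 bases before and 50 bases after the annotated start, were searched for 5 motifs on both strands. The RefSeq table held 69 of the 78 members and 27025 genes in all, and 10282 of the tested protein-coding genes matched it. The NRF1 motif (GCGCA, then any base, then GCGC, on either strand) stood in 13 of the 69, or 18.8%, compared with 11% of tested protein-coding genes and 5.19% of all genes in the table. It was found in 10 of 43 large-subunit genes (23.3%) and in 3 of 26 small-subunit genes (11.5%). The ETS motif (CCGGAAGT), bound by the GABP factor, stood in 17.4% of members and 8.83% of tested protein-coding genes, and the YY1 motif (AAGATGGC) in 17.4% and 5.14%. The E-box (CACGTG), a motif bound by Myc with Max, stood in 7.25% and 11.6%. Related gene lists had comparable shares for some motifs only. In nuclear oxidative phosphorylation genes the NRF1 motif stood in 25.4%, the YY1 motif in 14.9% and the ETS motif in 7.46%. In cytosolic ribosomal protein genes the shares were 9.68% for NRF1, 9.68% for YY1 and 19.4% for ETS. The motif of estrogen-related receptors (TCAAGGTCA) was in 0 of the 69 windows and in 0.301% of tested protein-coding genes.

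Members with the NRF1 motif had log2 fold changes on either side of 0. Their median was 0.11 over 13 genes, and that of the 56 without it was 0.09. All 3 called members were among the 13, as were Mrpl39, Mrpl12 and Mrpl14 of the large subunit and Mrps26 and Mrps21 of the small subunit. Mrpl39, Mrpl12 and Mrps21 of these had values below 0, and Mrpl14 and Mrps26 above.

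Many members share their start region with a gene on the opposite strand. In the GENCODE M21 annotation of build GRCm38, 23 of the 78 members (29.5%) had an opposite-strand protein-coding gene starting within 1000 bases, compared with 11.5% of 12978 tested protein-coding genes. Among 22 tested neighbours, 2 rose, where 6.3% of all tested genes were called higher. The median log2 fold change of the 22 neighbours was 0.14. Mrpl30 and its neighbour Mitd1 start 66 bases apart, and both rose (log2 fold change of Mitd1 0.66, edgeR adjusted p = 0.0296). Ptcd2 rose (log2 fold change 0.46, edgeR adjusted p = 0.0346), whereas its neighbour Mrps27, 81 bases away, had the value of -0.37 given above. The neighbours of the other called members did not pass the test: Ska3 beside Mrpl57 had a log2 fold change of 0.23 (edgeR adjusted p = 0.384) and Psma2 beside Mrpl32 one of -0.13 (edgeR adjusted p = 0.650). Mitd1, Ptcd2, Ska3 and Psma2 were chosen after their values were seen.

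In addition to the genes named Mrpl and Mrps, 5 proteins of the mitochondrial ribosome have other symbols. Of these 1 rose, where 6.3% of all tested genes were called higher. Aurkaip1, a small-subunit protein, gave 37.8, 34.7 and 34.6 CPM after LNP-GFP and 44.2, 43.7 and 43.7 CPM after LNP-Gsdme (log2 fold change 0.30 ± 0.07 SE, edgeR adjusted p = 0.0473). Gadd45gip1, a large-subunit protein, gave 15.8, 15.3 and 15.5 CPM against 18.4, 18.8 and 18.2 CPM without passing the test (log2 fold change 0.25 ± 0.08 SE, edgeR adjusted p = 0.0959). The other three, Dap3, Ptcd3 and Chchd1 of the small subunit, had log2 fold changes of 0.08, -0.09 and 0.10 (edgeR adjusted p = 0.505, 0.676 and 0.704). The call of Aurkaip1 was lost with limma-voom (adjusted p = 0.0502) and on leaving out any single library but LNP-GFP 1 (0.0739 to 0.175).

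Proteins that build the mitochondrial ribosome gave 3 higher (12%) and no lower calls among 25 genes. The shares over all tested genes were 6.3% higher and 5.32% lower. The median log2 fold change of the 25 genes was 0.12. Ddx28, an RNA helicase needed to assemble the large subunit, stood at 28.6, 27.8 and 27.6 CPM after LNP-GFP and 48.3, 41.5 and 44.9 CPM after LNP-Gsdme. Its groups were far apart, and it rose (log2 fold change 0.68 ± 0.08 SE, edgeR adjusted p = 0.00991). Mrm1, which methylates the large ribosomal RNA, gave 5.97, 4.90 and 5.59 CPM against 9.72, 10.9 and 8.04 CPM (log2 fold change 0.80 ± 0.16 SE, edgeR adjusted p = 0.0293). The third was Rbfa, a factor that matures the small subunit (log2 fold change 0.66, edgeR adjusted p = 0.0441), named after its value was seen. Leaving out LNP-GFP 3 gave Ddx28 an adjusted p of 0.0731 and leaving out LNP-Gsdme 1 one of 0.0553, so that its call was lost, and Mrm1 missed it on leaving out any single library but LNP-GFP 1 and LNP-Gsdme 3 (0.0622 to 0.121).

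Among other parts of mitochondrial gene expression 2 genes were called. Of 13 translation factors edgeR called none (median log2 fold change 0.22, 2 higher and 0 lower at an unadjusted p below 0.05), and the smallest adjusted p was 0.0739, for Tsfm, the exchange factor of the elongation factor Tufm. Of 20 aminoacyl-tRNA synthetases and amidotransferase subunits 1 rose (5%, against 6.3% of all tested genes). It was Gatc, which helps charge the glutamine transfer RNA (log2 fold change 0.62 ± 0.13 SE, edgeR adjusted p = 0.0338). Of 21 genes for transcription and RNA processing edgeR called none (median 0.04, 4 higher and 0 lower at an unadjusted p below 0.05), with the smallest adjusted p, 0.0618, for the elongation factor Tefm. Of 10 regulators, 4 had log2 fold changes above 0 and 6 below, with a median of -0.0081. Among them 1 rose (10%): Esrra, an estrogen-related receptor, from 33.7, 31.6 and 33.9 CPM to 52.8, 48.6 and 48.8 CPM (log2 fold change 0.60 ± 0.08 SE, edgeR adjusted p = 0.0104). Nrf1 itself had a log2 fold change of 0.24 (edgeR adjusted p = 0.0878), Gabpa one of -0.30 (0.0567) and Myc one of -0.12 (0.616). Esrra missed the threshold without LNP-GFP 3 (adjusted p = 0.0694), LNP-Gsdme 1 (0.0598) or LNP-Gsdme 2 (0.0526), and Gatc without any library but LNP-GFP 1 (0.0541 to 0.148).

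Messages of the mitochondrial genome, which these ribosomes translate, fell after LNP-Gsdme with the exception of mt-Atp6, whose log2 fold change of -1.54 did not pass the test (edgeR adjusted p = 0.123). Of 15 transcripts, the messages and both ribosomal RNAs, 12 fell, all of them messages. The median log2 fold change over the 15 was -0.83, and mt-Nd3 and mt-Nd5, both subunits of complex I, had -0.94 ± 0.07 and -0.92 ± 0.08 (SE, edgeR adjusted p = 0.00350 and 0.00473). The ribosomal RNAs that the members bind did not pass the test, at -0.12 for the small-subunit mt-Rnr1 (edgeR adjusted p = 0.608) and -0.37 for the large-subunit mt-Rnr2 (edgeR adjusted p = 0.0914). Summed FPKM of the members over that of the mitochondrial genome was 0.0260, 0.0211 and 0.0233 after LNP-GFP and 0.0438, 0.0447 and 0.0352 after LNP-Gsdme, with no overlap.

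Genes of the cytosolic ribosome, which makes the members' proteins, gave calls in the other direction. Of 82 tested cytosolic ribosomal protein genes 34 fell and none rose, also at an unadjusted p below 0.05, with a median log2 fold change of -0.31, and Rps4x and Rps3a1 both had -0.50 (SE 0.06 and 0.07, edgeR adjusted p = 0.0103 and 0.0129). Members' summed FPKM over that of cytosolic ribosomal protein genes was 0.0783, 0.0701 and 0.0712 after LNP-GFP and 0.0973, 0.101 and 0.102 after LNP-Gsdme. Nuclear genes for oxidative phosphorylation subunits, the partners of the proteins these ribosomes make, had 1 lower call in 82, Atp5b (log2 fold change -0.35 ± 0.07 SE, edgeR adjusted p = 0.0276), and a median of -0.04. Atp5b, Rps4x and Rps3a1 also missed the threshold without LNP-GFP 3 (adjusted p = 0.136, 0.0800 and 0.0859), LNP-Gsdme 1 (0.109, 0.0625 and 0.0635) or LNP-Gsdme 2 (0.118, 0.0599 and 0.0671), and Atp5b without LNP-GFP 2 (0.0632). These lists were set side by side by counts and medians, and no test between lists was made.

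**Figure D4:**
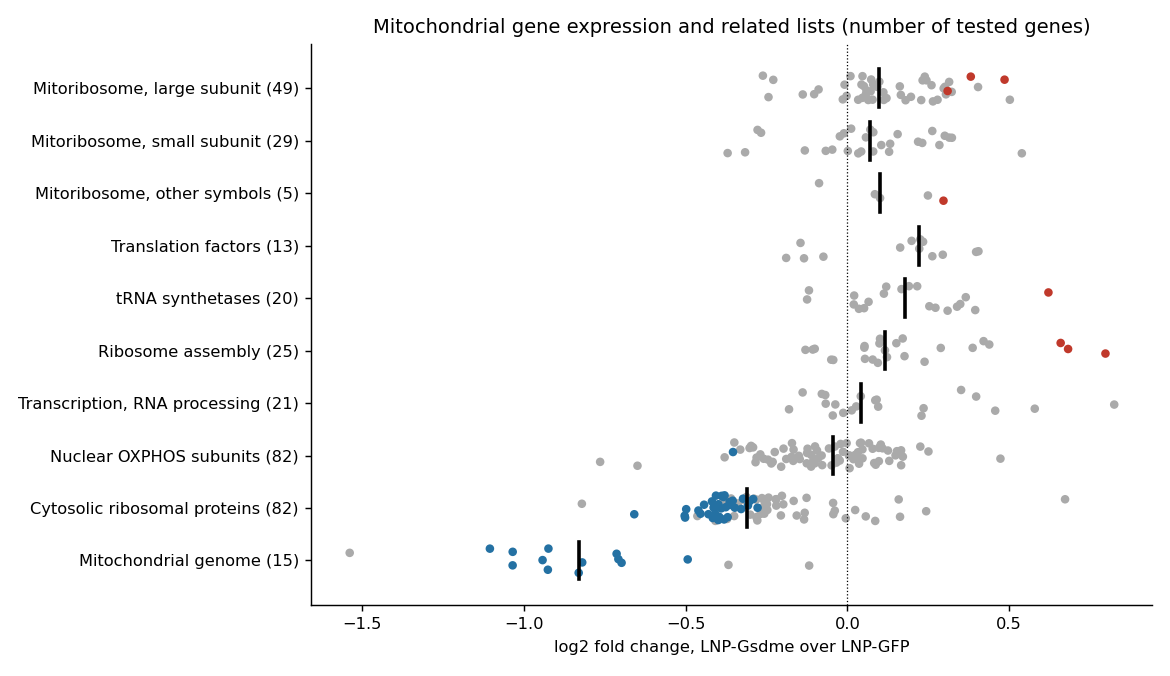
Fitted log2 fold changes of single genes (points, x axis) in each gene list (rows), red for genes called higher and blue for genes called lower at an adjusted p below 0.05, with a black bar at the median of each list. Both subunits have medians just above 0, at 0.10 and 0.07, and transcripts of the mitochondrial genome lie lowest, at -0.83.

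Library totals were 20233559 to 22932095 counts after LNP-GFP and 15991826 to 18751784 after LNP-Gsdme. Members took 0.1525 to 0.161% of counts in the first group and 0.1645 to 0.1728% in the second. Monocyte markers summed to 10910 to 11860 CPM after LNP-GFP and 9280 to 11520 CPM after LNP-Gsdme, with none of the 12 at 0. Markers of that list moved in both directions: Ly6c2, Fcgr1 and Plac8 were among those that rose, Cd14 and Vcan fell, and Ly6c2, the sort marker's gene, stood at 256.9, 266.9 and 211.2 CPM after LNP-GFP and 1374, 1856 and 1400 CPM after LNP-Gsdme (log2 fold change 2.66 ± 0.16 SE, edgeR adjusted p = 0.00219). These were named after their values were seen. Markers of other cells were present, and several lists differed in their group means. All 10 fibroblast markers were lower in the mean after LNP-Gsdme (summed 9297 to 10340 CPM against 2228 to 5759 CPM). Of these, 6 were called lower. All 8 dendritic cell markers were lower in the mean too (127.7 to 172.7 against 69.42 to 106.5 CPM), with 4 called lower. All 8 melanoma markers were also lower in the mean (338.1 to 1842 against 127.7 to 756.5 CPM). Their summed ranges overlapped, and none was called. All 9 NK cell markers and 7 of 8 T cell markers were higher in the mean (151.3 to 569.3 against 561.8 to 742.4 CPM, and 175.7 to 495.2 against 429.8 to 545.3 CPM). The summed ranges overlapped in both lists. Of 8 tested NK cell markers 1 was called higher, and no T cell marker was called. None of the tested neutrophil, B cell or endothelial markers was called. Over all tested genes 6.3% were called higher and 5.32% lower. Of 12 markers of dividing cells 2 had log2 fold changes above 0, and 1, Mki67, fell (-0.55, edgeR adjusted p = 0.0360). No marker of these lists was at 0 in all libraries, and the part of such cells in the members' values was not tested. In bulk RNA, fewer cells of a type and less RNA per cell cannot be told apart. Summed melanoma markers were 338.1, 1842 and 1105 CPM in LNP-GFP 1, 2 and 3. Those of NK cells were 569.3, 151.3 and 354 CPM, and those of T cells 495.2, 175.7 and 330.5 CPM. In these lists LNP-GFP 3 thus lay near the middle between LNP-GFP 1 and LNP-GFP 2, but not in summed monocyte or B cell markers. Whether the control libraries are independent was not tested.

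Counting can blur some members. The sources used here name neither the strand setting nor the handling of shared reads, and 25 members overlap another protein-coding gene of the table, such as Mrps11 and Mrpl46, which overlap each other by 413 bases. Mrpl23, Mrpl27, Mrpl48 and Mrps36 have pseudogene copies in the table (6 pseudogene rows, of which 5 were tested and none was called by edgeR, and 1 had no counts), and reads may be split between gene and copy, so their values are less certain.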

How the data were processed

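The authors deposited 1 table of genes with raw counts and FPKM for each of 6 libraries, per the file headers. Build GRCm39 is named in the submitters' processing notes, and no aligner, counter or strand setting is named in the sources used here. Per the labels' protocols, total RNA was DNase-treated and made into paired-end TruSeq libraries. The deposited counts are whole numbers without normalization, and the deposited FPKM values are those counts per base of gene length and per library total, checked on 11356 genes with implied lengths that differed between libraries by at most 0.00178%. Members had 37 to 1216 counts per gene and library.

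Groups came from the treatment label and replicate numbers from the titles. Counts were fitted in R 4.3.3 with edgeR 4.0.16 (filterByExpr by group, TMM factors of 0.9796 to 1.036, robust quasi-likelihood test) over all 16010 genes, with Benjamini-Hochberg adjustment over all of them and calls at an adjusted p below 0.05. Variation between libraries beyond that of counting, whether biological or technical, was estimated at 0.193 (coefficient of variation). CPM values use TMM-scaled totals of tested genes. The fit was tested on simulated data. Promoters and sequence windows came from RefSeq tables of GRCm38.p6, so their coordinates are of another build than those of the deposited genes.

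Values per library are given for called members, the 3 of each subunit highest in mean FPKM, the 3 highest and 3 lowest log2 fold changes of each subunit whose average log2 CPM reached 2, the Mrps18 genes, Mrpl12 and Mrps30. The proteins with other symbols were named as well, and, of each pathway list, the 2 called genes with the smallest p or else the 1 with the smallest p. Some of these are given without values per library. Members and lists were chosen with earlier results of these data known. Alternatives were DESeq2 1.42.0, limma-voom (limma 3.58.1), other scalings, filters and thresholds, edgeR without robust fitting, a replicate block, each library left out, subunits by place in the ribosome, and, chosen after seeing the data, leaving out overlapping members. Values of some single list genes are not reported here.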

Additional observations from a re-analysis of the deposited data

How the results depend on the processing

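Main counts were 3 members higher and 0 lower (3 and 0 in the large subunit, 0 and 0 in the small), and 1008 genes higher and 851 lower in all. DESeq2 called 6 members higher, all in the large subunit, and 1527 genes higher and 1493 lower. Without the low-count filter 1 member, of the large subunit, was called higher. Upper-quartile scaling called 1 member lower, of the large subunit. At an adjusted p below 0.01 there were 0 members higher, with 131 genes higher and 52 lower, and at 0.10 there were 7 higher (6 large, 1 small) and 1 lower (large), with 1833 and 1705 genes. With each library left out, 0 to 7 members were higher (0 to 4 large, 0 to 3 small), with 64 to 1625 genes higher and 24 to 1216 lower, and the medians of log2 fold change ran from 0.084 to 0.159 in the large subunit, from 0.0386 (without LNP-GFP 2) to 0.116 (without LNP-GFP 1) in the small subunit, and from 0.0555 to 0.148 over all members. The difference between groups in the large to small ratio, 0.0229 by CPM, was 0.0504 by FPKM. The cause of these shifts was not tested. The medians of both subunits stayed above 0 under each alternative. The balance of calls over all genes turned to 855 higher and 1055 lower with upper-quartile scaling and to 930 and 1201 without LNP-Gsdme 3. Of members described with values per library, Mrps6, Mrps21, Mrps30 and Mrpl34, none of which passed the test, changed sign when some single library was left out, as did Chchd1 and Ptcd3, and Mrps30 also without scaling factors.

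Replicate numbers are shared between the groups. Same-numbered libraries deviated from their group means with correlations of 0.214, -0.237 and 0.0315, and differently numbered ones with -0.326 to 0.319. Since the deviations of 3 libraries sum to 0, these correlations cannot show whether same-numbered libraries were handled together. With the replicate number as a block, 0 members were higher (0 in the large subunit), and 103 genes were higher and 52 lower. Precision did not follow depth alone: the SE was 0.28 in Mrpl53, with the fewest counts, and 0.27 in Mrps6, with more.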
